A study of Mus musculus with 18 samples.

Results

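A set of 7 genes of the intermediate filament cytoskeleton and of the cross-linking machinery of epithelial cells was followed here: the keratin genes Krt7, Krt8, Krt18, Krt19, Krt20 and Krt36, and the transglutaminase gene Tgm3. They were found on the array as all probes carrying a member's symbol, or its older keratin symbol together with the same Entrez gene number, which gave 8 probes of 7 genes among 45281 probes. All 8 passed the filter on dim probes, in a table of 21938 tested probes of 15757 genes. The set was chosen from earlier results of these data: Krt36 was named by the study for DSS_KO against DSS_WT, and Tgm3 was picked for its level in DSS_KO against Naive_KO, so those differences are given as descriptions, without a p.

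The measured RNA was that of colon epithelial cells sorted as EpCAM-positive and CD45-negative from C57BL/6 mice, either wild-type (WT) or lacking the methyl-CpG-binding protein Mbd2 in every cell (Mbd2 -/-, labelled Mbd2KO). The mice were naive or had drunk 2% dextran sulphate sodium (DSS), which damages the epithelium of the large bowel and brings on colitis, for 6 days. This gave 4 groups of 4 samples, called Naive_WT, Naive_KO, DSS_WT and DSS_KO. Mice were 8 to 22 weeks old, and a sample held RNA of 1 to 5 mice per the design given with the series. The study's methods give a wider range over all its sorted populations and speak of several separate experiments, which the labels do not assign to samples, so experiment could not be examined as a batch. Since the deletion was not limited to the epithelium, a difference arising in the sorted cells and one imposed on them by other cells cannot be told apart. In sorted bulk samples, fewer cells of a type and less RNA per cell cannot be told apart either.

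Keratins build filaments from pairs of a type I and a type II chain, and neither chain assembles alone. Krt8 (type II) and Krt18 (type I) form the basic pair of simple epithelia such as the gut lining, Krt19 and Krt20 are further type I chains of the intestine, and Krt7 is a type II chain of ducts and other simple epithelia. Krt20 is a marker of differentiated cells near the lumen. Krt36 is a type I keratin of the hair and nail group. Tgm3 encodes transglutaminase 3, a calcium-dependent enzyme that cross-links proteins and is best known from the cornified envelope of the skin and hair. In the reference annotation, Krt8 and Krt18 are direct neighbours on chromosome 15 and Krt7 also lies on that chromosome, between Krt80 and Krt87. Krt19 (between Krt15 and Krt9), Krt20 (between Krt12 and Krt23) and Krt36 (between Krt35 and Krt13) lie on chromosome 11, and Tgm3 lies on chromosome 2.

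Each probe is a run of 50 bases on a bead, and the first 30 bases of 5 probes are printed 5′ to 3′ because the genotype differences rest on them. Krt36 was read by 2 probes. A further probe with the old symbol Krt1-5, which the reference lists as a synonym of Krt36, carries no Entrez number and so is not a member, but it reads a different stretch and is shown for comparison.
Krt36, brighter probe: ctggtcttaactgtgctttttacgccatgc
Krt36, dimmer probe: tgcaccccagctcctcaagtcagcacccag
Krt1-5: gctggctgagattcgttgtgacctggagcg
Tgm3: atgtgcggaagcccgtgaacgtgcagatgc
Krt20: gtgaacgggttctccagggaggcaacttcc
Per the array's own annotation, which names no genome build, the brighter Krt36 probe lies at chr11:99963359-99963408 on the minus strand, the Krt20 probe at chr11:99289937-99289986 on the minus strand and the Tgm3 probe at chr2:129873440-129873489 on the plus strand. For the dimmer Krt36 probe and the Krt1-5 probe that annotation gives no position, and it does not say whether any probe lies in coding sequence. No 2 probes of the array share one of these sequences. A probe with the old symbol Krt2-8, also without an Entrez number, was detected on 0 of 18 arrays and was not tested, whereas the Krt8 probe was detected on every array.

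Because Mbd2 binds methylated CG pairs, the 250 bases before the annotated start of the 3 genes with the largest genotype differences are shown, 5′ to 3′ in the direction of the gene, from RefSeq on GRCm38.p6. Capitals mark CG. Methylation and Mbd2 binding were not measured in these samples.
Krt36 (chr11:100105627-100105876, minus strand): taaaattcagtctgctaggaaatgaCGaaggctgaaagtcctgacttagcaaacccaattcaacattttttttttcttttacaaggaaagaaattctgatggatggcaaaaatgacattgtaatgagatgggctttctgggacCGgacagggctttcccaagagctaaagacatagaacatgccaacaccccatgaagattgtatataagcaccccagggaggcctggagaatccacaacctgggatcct
Tgm3 (chr2:130012090-130012339, plus strand): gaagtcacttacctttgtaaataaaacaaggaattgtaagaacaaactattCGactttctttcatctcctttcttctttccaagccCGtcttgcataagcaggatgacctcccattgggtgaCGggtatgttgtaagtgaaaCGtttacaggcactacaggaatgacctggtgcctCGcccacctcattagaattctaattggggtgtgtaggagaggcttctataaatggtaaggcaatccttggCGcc
Krt20 (chr11:99438154-99438403, minus strand): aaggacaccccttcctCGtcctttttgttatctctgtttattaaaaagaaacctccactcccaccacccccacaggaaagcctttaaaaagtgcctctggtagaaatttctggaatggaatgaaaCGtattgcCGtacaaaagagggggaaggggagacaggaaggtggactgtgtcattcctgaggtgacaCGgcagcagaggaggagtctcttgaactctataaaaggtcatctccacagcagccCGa
The Krt36 window held 2 CG pairs, the Tgm3 window 6 and the Krt20 window 5, beside a median of 6 over 32851 windows of the same length. The windows of Krt8, Krt18 and Krt7 held 3, 12 and 16. The letters TATAAA, searched on both strands, were found in the Tgm3 and Krt20 windows, 28 and 29 bases before the start, and not in those of Krt7, Krt8, Krt18 and Krt36, beside 12.4% of all windows. For Krt36 and Tgm3 the printed start is 1 of those annotated within the gene.

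All values below are log2 normalized signals, and fold changes are differences of these on the log2 scale. A level of one probe is not set against that of another. A difference was called when limma's adjusted p was under 0.01 and the absolute log2 fold change was 1 or more, the thresholds of the study's methods. The words rose and fell are kept for an adjusted p under 0.05. The arrays detected 18851 to 20618 probes each (41.6% to 45.5%), and 26 to 70 beads stood behind each signal of a member. The 10 epithelial markers fixed for the sort (Epcam, Cdh1, Vil1 and others) were each detected on all 18 arrays. The log2 of their summed signal, added up before the log2 step, lay between 15.9 and 16.21 in every sample.

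The mean Krt36 signal was lower in Mbd2KO than in WT both with and without DSS. With DSS, the Krt36 signals were 8.88, 9.31, 9.48 and 10.27 in the DSS_KO samples and 11.54, 11.12, 11.42 and 11.24 in the DSS_WT samples. The groups did not overlap, and the DSS_WT samples lay much closer together than the DSS_KO samples. Their means were 9.49 ± 0.579 and 11.33 ± 0.185 (SD, n = 4 each), a log2 difference of −1.85 ± 0.408 (SE), or 3.59-fold lower in the DSS_KO samples. This is the comparison for which Krt36 was picked, and no test is given for it.

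Without DSS the samples were different mice. The Krt36 signals there were 9.61, 9.45, 8.88 and 10.86 in Naive_KO and 10.8, 12.07, 10.94 and 12.53 in Naive_WT. One Naive_KO sample, number 16, lay just above the lowest Naive_WT sample, and the other Naive_KO samples lay below all of them. The mean was 9.70 ± 0.834 against 11.58 ± 0.85 (SD, n = 4 each), so that Krt36 fell by 1.88 ± 0.408 (SE) on the log2 scale, with a 95% interval from −2.75 to −1.02 and a limma adjusted p of 0.0159. The call threshold of 0.01 was not met. The adjusted p was above 0.05 when the fit held only these groups (0.0665) and when Naive_WT 10 (0.0573) or Naive_KO 15 (0.0518) was left out, and without Naive_KO 16 it was 0.00241.

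The dimmer Krt36 probe gave a log2 difference of −1.87 with DSS and −1.87 without it (limma adjusted p of 0.0323 without DSS). The Krt1-5 probe gave −1.80 and −1.83 in the same comparisons. All 3 probes placed DSS_KO 5 lowest and DSS_KO 8 highest within DSS_KO, and Naive_KO 15 lowest and Naive_KO 16 highest within Naive_KO.

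**Figure D1:**
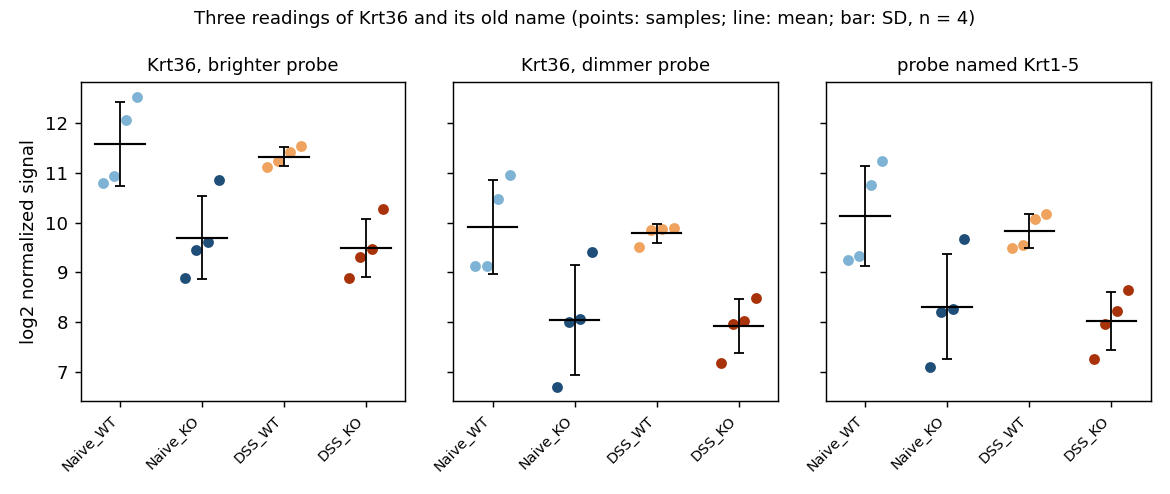
Log2 normalized signal (vertical axis) of both Krt36 probes and of the probe with the old symbol Krt1-5 in the 4 groups; points are samples, the line is the group mean and the bar its SD (n = 4). In each panel both Mbd2KO groups lie lower than the WT groups, with Naive_KO 16 above the lowest Naive_WT sample.

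DSS itself moved Krt36 little beside its spread. The log2 difference of DSS_WT against Naive_WT was −0.25 (95% interval −1.12 to 0.61) and that of DSS_KO against Naive_KO −0.22 (−1.08 to 0.65). These comparisons use DSS samples that picked Krt36, so their intervals are no test and do not show that DSS left Krt36 unaltered. The genotype difference with DSS differed from that without it by 0.04 on the log2 scale. This value contains the difference that picked Krt36 and is given without a test.

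Tgm3 was lowest in the Mbd2KO mice given DSS. The Tgm3 signals were 4.33, 4.74, 7.59 and 5.46 in the DSS_KO samples 5 to 8, and 8.65, 9.09, 7.77 and 9.21 in Naive_KO. The highest DSS_KO sample stayed just under the lowest Naive_KO sample. Tgm3 was detected on 2 of the 5 DSS_KO arrays and on every array of the other groups, so the lowest of these values lie at the background of the array. The means were 5.53 ± 1.45 and 8.68 ± 0.653 (SD, n = 4 each), a log2 difference of −3.14 ± 0.561 (SE) that was −1.65 without background correction, so its size is uncertain. Tgm3 was picked on this difference, which is therefore not tested. With 1 sample left out at a time it was −3.83 to −2.74.

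Against DSS_WT, where the Tgm3 signals were 9.33, 8.93, 9.06 and 7.47, the DSS_KO samples again lay lower except at the edge: DSS_KO 7 stood above DSS_WT 4. The means were 5.53 ± 1.45 and 8.69 ± 0.835 (SD, n = 4 each), a log2 difference of −3.16 ± 0.561 (SE). This comparison uses the DSS_KO samples that picked the gene, so it is given without a test as well. Its size is uncertain with DSS_KO partly at background, and without background correction it was −1.68. Leaving out 1 sample at a time gave −3.85 to −2.76. Without DSS_KO 7, the sample with the most Tgm3, the difference was −3.85.

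The other Tgm3 differences were smaller. The Naive_WT samples had 9.6, 9.65, 9.33 and 10.4. All 4 Naive_KO samples lay below them, by 1.07 in the mean. The Naive_KO samples also served to pick Tgm3, so this difference is given without a test. The DSS_WT mean of 8.69 ± 0.835 lay 1.05 below the Naive_WT mean of 9.75 ± 0.456 (interval −2.24 to 0.13, limma adjusted p of 0.246), with the highest DSS_WT and the lowest Naive_WT sample both at 9.33. The genotype difference with DSS differed from that without it by −2.09 on the log2 scale. This value contains the difference that picked Tgm3 and is given without a test.

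Krt20, the chain of differentiated surface cells, lay on the opposite side. With DSS, the Krt20 signals were 12.5, 12.08, 12.62 and 12.08 in DSS_KO and 11.81, 11.67, 11.71 and 11.66 in DSS_WT. The groups did not overlap. The log2 difference was 0.61 ± 0.183 (SE; 1.52-fold, 95% interval 0.22 to 0.99), with a limma adjusted p of 0.0619. Without DSS, the signals were 12.14, 11.77, 12.31 and 12.17 in Naive_KO and 11.85, 11.31, 11.71 and 10.95 in Naive_WT. Here Naive_WT 9 lay above Naive_KO 14, and the difference was 0.64 ± 0.183 (SE; 1.55-fold, interval 0.25 to 1.02, limma adjusted p of 0.0531). Neither adjusted p was under 0.05. With DSS it was under 0.05 with all 18 arrays as separate replicates (0.0108) and with only these groups fitted (0.034). In the other settings with DSS it stayed above 0.05, up to 0.165 with scaling to a common median. Without DSS it was under 0.05 with all 18 arrays (0.0362), with detection on every array (0.0451) and without Naive_WT 9 (0.026) or Naive_KO 14 (0.0445). In the other settings without DSS it stayed above 0.05. It was 0.125 with only these groups fitted and at most 0.205, with scaling to a common median. Within Naive_WT the order of the samples for Krt20 was the reverse of that for Krt36, with sample 12 lowest for Krt20 and highest for Krt36.

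**Figure D2:**
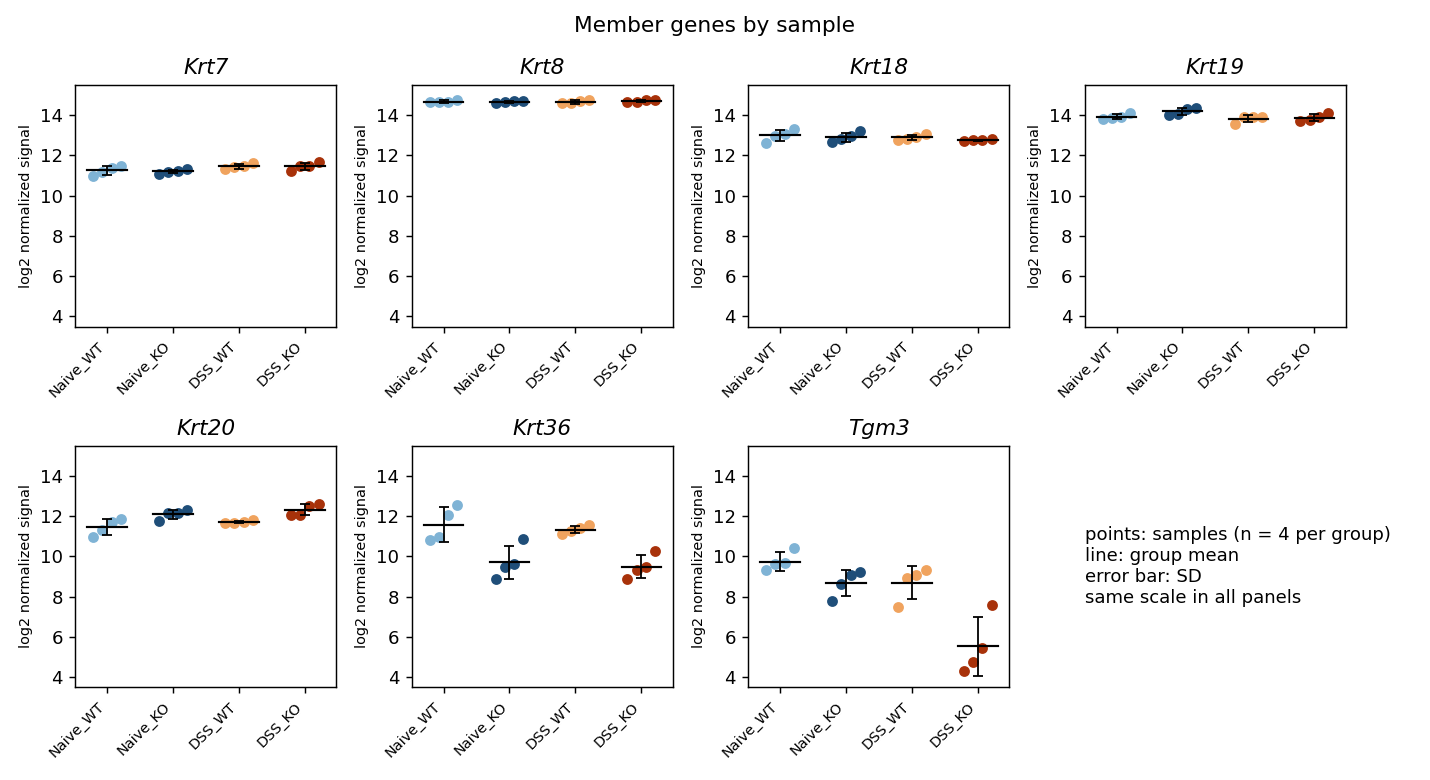
Log2 normalized signal (vertical axis, the same scale in all panels) of the 7 members by sample in the 4 groups; lines are group means and bars SD (n = 4). Krt36 is lower in both Mbd2KO groups, Tgm3 is lowest and most spread in DSS_KO (4.33 to 7.59), and Krt7, Krt8, Krt18 and Krt19 lie within narrow bands.

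The remaining simple-epithelium keratins differed by at most 0.30 on the log2 scale in any of the 4 comparisons, and none passed an adjusted p of 0.05. Krt8 lay between 14.59 and 14.77 in all 16 samples. It was among the 41 brightest tested probes in every sample, near the top of the scale. Whether the array could show a difference at that brightness was not tested. Its group means were 14.67 ± 0.0681 in Naive_WT, 14.66 ± 0.0383 in Naive_KO, 14.65 ± 0.0748 in DSS_WT and 14.70 ± 0.0648 in DSS_KO (SD, n = 4 each).

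Krt18, its filament partner, ranged from 12.71 to 12.79 in DSS_KO and from 12.76 to 13.08 in DSS_WT. It spread from 12.66 to 13.2 in Naive_KO and from 12.6 to 13.31 in Naive_WT, so that all groups overlapped. The genotype difference with DSS was −0.15 (95% interval −0.45 to 0.16) and without DSS −0.09 (−0.39 to 0.21).

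Krt19 showed 13.78, 13.92, 14.13 and 13.69 in DSS_KO, 13.89, 13.9, 13.91 and 13.56 in DSS_WT, 14.06, 14.02, 14.36 and 14.3 in Naive_KO, and 13.92, 13.85, 13.82 and 14.09 in Naive_WT. In each of the 4 comparisons the groups overlapped. Its largest log2 difference was −0.30 for DSS_KO against Naive_KO (95% interval −0.57 to −0.04, limma adjusted p of 0.148).

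Krt7 ranged from 11.21 to 11.65 in DSS_KO, from 11.33 to 11.62 in DSS_WT, from 11.09 to 11.32 in Naive_KO and from 10.98 to 11.49 in Naive_WT. Its genotype differences were −0.01 with DSS (95% interval −0.27 to 0.26) and −0.06 without it (−0.33 to 0.21). With DSS it stood 0.19 higher in WT (limma adjusted p of 0.348) and 0.25 higher in Mbd2KO (limma adjusted p of 0.238). Scaling to a common median, which moved the median over all probes by 0.241 and 0.233 in these comparisons, gave 0.58 (limma adjusted p of 0.0156) and 0.65 (limma adjusted p of 0.00893) for Krt7. For Krt7, Krt18 and Krt19 the intervals of the genotype differences did not reach the size of the Krt36 differences, and do not show that there was no difference.

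**Figure D3:**
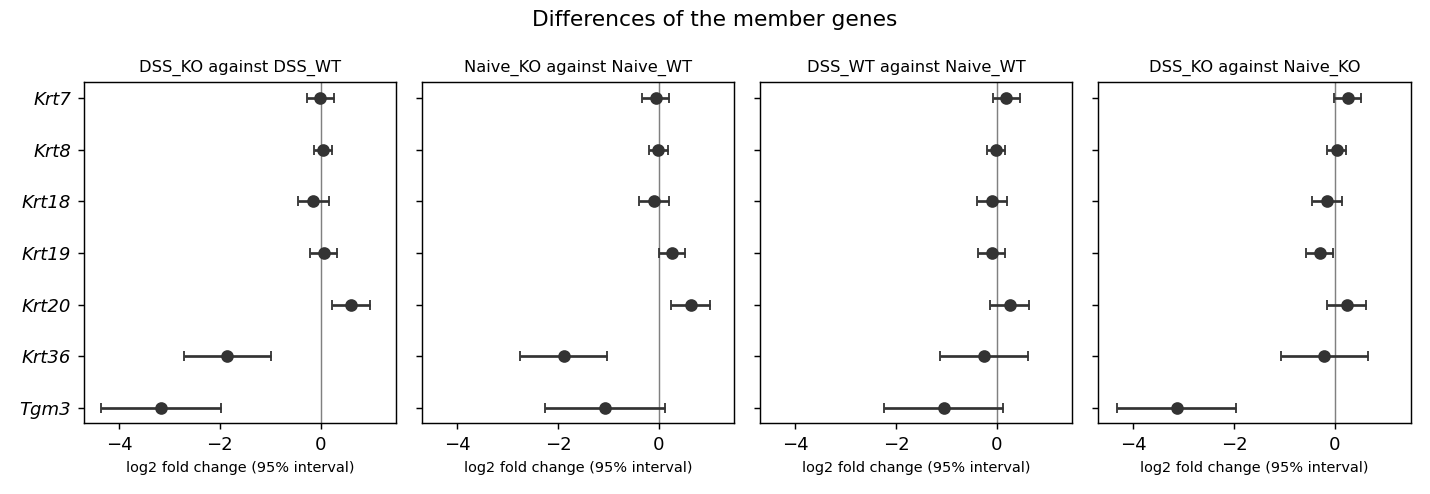
Log2 fold change (horizontal axis) of the 7 members in the 4 comparisons, the first-named group minus the second; points are limma estimates and bars their 95% intervals (n = 4 per group). The largest differences are those of Tgm3 in the comparisons with DSS_KO (−3.16 and −3.14) and of Krt36 between genotypes (−1.85 and −1.88). Krt36 was picked on DSS_KO against DSS_WT and Tgm3 on DSS_KO against Naive_KO. Intervals of Krt36 with a DSS group, and of Tgm3 with DSS_KO or Naive_KO, are therefore no test.

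In DSS_KO against DSS_WT, leaving aside Krt36, which was picked there, and Tgm3, which was picked on the same DSS_KO samples, limma called 0 members, beside 0.862% of all tested probes, and 0 had an adjusted p under 0.05, beside 5.63%. The unadjusted p was under 0.05 for 1 (Krt20), beside 22.2%. The groups did not overlap for Krt20, beside 14.7% of all probes. In Naive_KO against Naive_WT, 0 members were called by limma, beside 0.656% of all probes; 1 (Krt36) had an adjusted p under 0.05, beside 5.19%, 2 (Krt36 and Krt20) had an unadjusted p under 0.05, beside 22.8%, and 1 (Tgm3) did not overlap, beside 12.3%. In DSS_WT against Naive_WT, 0 were called by limma and 0 had an adjusted or unadjusted p under 0.05, beside 1.74% called, 10.5% under an adjusted and 26.3% under an unadjusted 0.05 over all probes, and 1 (Tgm3) did not overlap, beside 17% of all probes. In DSS_KO against Naive_KO, leaving aside Tgm3, which was picked there, 0 members were called by limma, beside 1.72% of all probes, 0 had an adjusted p under 0.05, beside 9.42%, 1 (Krt19) had an unadjusted p under 0.05, beside 24.5%, and 0 did not overlap, beside 15.9%. For the difference between the genotype effects, limma called 0% of all probes, also at an adjusted p of 0.05, and 10.7% had an unadjusted p under 0.05. Of the members other than Krt36 and Tgm3, 0 had an unadjusted p under 0.05 there. As Krt36 and Tgm3 were chosen on some of these samples, nothing is read from the members' shares.

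Among the other keratins, 51 symbols were on the array and 19 were tested, 23 being detected on no array. The skin keratins Krt5 and Krt6a were among those detected on no array. The keratins detected on all 18 arrays were Krt10, Krt14, Krt15, Krt23 and Krt84, beside the old symbol Krt1-5. With DSS, 1 of 19 was higher in Mbd2KO (Krt90) and 1 lower (Krt1-5, a reading of Krt36 in the comparison on which Krt36 was picked, and so no test of it) at an adjusted p under 0.05, with a median of −0.17. Without DSS, 0 were higher and 2 lower (Krt23 and Krt1-5, the latter again a reading of Krt36), with a median of 0.03. The medians over all tested probes were −0.003 and −0.001.

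Krt90 was the keratin called in this list: 6.82, 6.67, 5.86 and 5.64 in DSS_KO against 5.01, 4.81, 5.03 and 5.32 in DSS_WT. The groups did not overlap, and Krt90 rose by 1.21 on the log2 scale (limma adjusted p of 0.00942). It was detected on 5 of 5 DSS_KO arrays but on 0 of 4 Naive_WT arrays. Against Naive_KO, where it was detected on 1 of 4 arrays, the log2 difference was 1.35, a size that is uncertain with that group near background. Krt90 passed the filter only through DSS arrays, so this difference from Naive_KO is given without a test. Krt23, which neighbours Krt20 on chromosome 11 and is named here after its values were seen, had means of 10.19 ± 0.53 in Naive_WT and 9.13 ± 0.611 in Naive_KO (SD, n = 4 each) and fell by 1.06 (limma adjusted p of 0.0381). With DSS the Krt23 means were 9.63 and 8.85, a difference that did not pass. In DSS_WT against Naive_WT 1 of the 19 counted as higher (Krt17, by 0.77, also named after its values were seen), and in DSS_KO against Naive_KO 1 did (Krt90). Krt17 was detected on 2 of 4 Naive_WT and 1 of 4 Naive_KO arrays, so its naive level lay partly at background. As Krt17 passed the filter only through DSS arrays, its difference is given without a test as well.

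Of the 7 other transglutaminases, Tgm2 and F13a1 were tested, and Tgm1, Tgm4, Tgm5, Tgm6 and Tgm7 were detected on 0 to 2 arrays. Tgm2, the widely expressed tissue transglutaminase, had means of 9.97 ± 0.375 in Naive_WT and 11.04 ± 0.307 in DSS_WT, with every DSS_WT sample above every Naive_WT sample. It rose with DSS by 1.06 in WT (limma adjusted p of 0.00798) and by 1.33 in Mbd2KO (limma adjusted p of 0.00223), where Tgm3 lay lower. F13a1, the A chain of clotting factor XIII, which macrophages also make, was 1.35 higher in DSS_KO (6.27 ± 0.334) than in Naive_KO (4.93 ± 0.253). Its naive level was near background, with detection on 1 of 4 Naive_KO and 1 of 4 Naive_WT arrays. F13a1 passed the filter only through DSS arrays, so this difference is given without a test. Neither Tgm2 nor F13a1 differed between genotypes at an adjusted p of 0.05.

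Of the 20 genes of the cornified envelope and of transglutaminase substrates, 11 were tested. With DSS, 1 was higher and 3 lower in Mbd2KO at an adjusted p under 0.05, with a median of −0.27. Without DSS the counts were also 1 and 3, with a median of −0.23. Loricrin (Lor), a bulk protein of the cornified envelope, had 6.3, 6.86, 6.34 and 6.75 in Naive_WT and 4.85, 5.25, 4.81 and 5.37 in Naive_KO. It was detected on 2 of 4 Naive_KO arrays and on every array of the other groups, so its lower values are close to background. It fell by 1.49 without DSS (limma adjusted p of 0.00218) and by 1.21 with DSS (limma adjusted p of 0.00831), and its genotype groups overlapped in neither. Sprr1a, a small proline-rich envelope precursor, had means of 10.65 ± 0.432 in Naive_WT and 8.72 ± 0.741 in Naive_KO and fell by 1.93 (limma adjusted p of 0.002). With DSS it fell by 1.47 (limma adjusted p of 0.011). Sprr2h was 1.15 higher in DSS_WT than in Naive_WT, where it was detected on 2 of 4 arrays and so lay partly at background. It was detected on 0 of 4 Naive_KO arrays and passed the filter only through DSS arrays. This difference is therefore given without a test. Involucrin (Ivl) and filaggrin (Flg), other envelope proteins of the skin, were detected on no array.

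**Figure D4:**
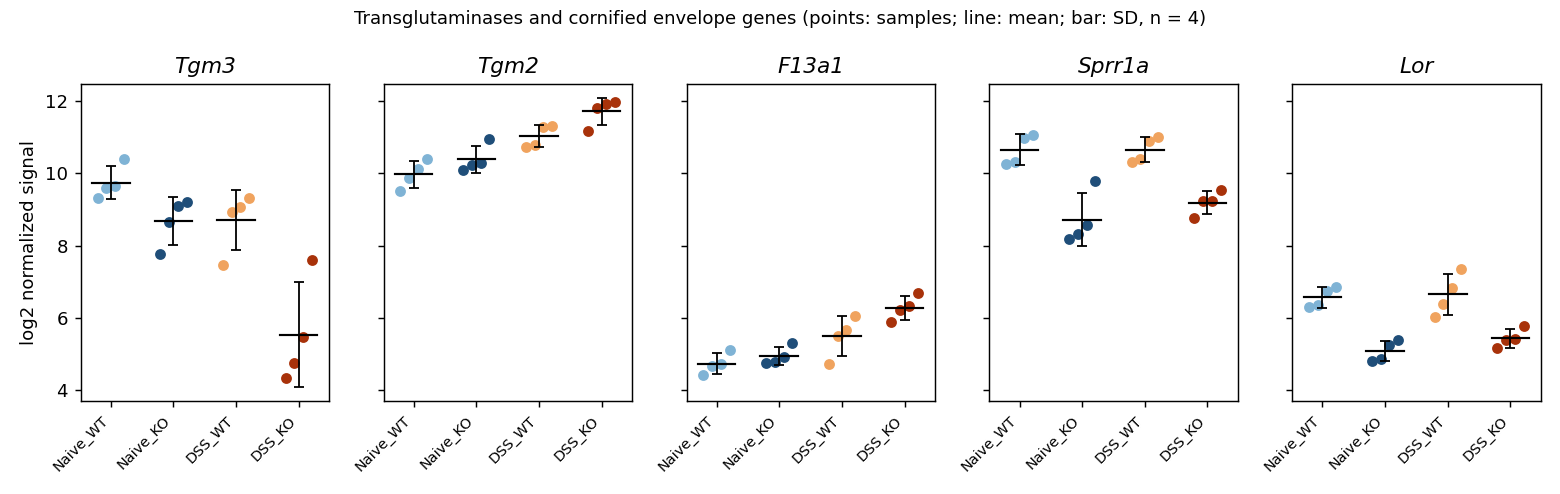
Log2 normalized signal (vertical axis) of Tgm3, the tested transglutaminases Tgm2 and F13a1, and the envelope genes Sprr1a and Lor by sample in the 4 groups; lines are means and bars SD (n = 4). Tgm2 is higher in DSS than in naive samples of the same genotype, and Sprr1a and Lor are lower in both Mbd2KO groups.

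Of the 14 genes that anchor keratin filaments or build desmosomes, 12 were tested and none was called. Envoplakin (Evpl), which ties keratins to the cell edge and also counts among the envelope genes, rose by 0.84 with DSS (limma adjusted p of 0.0103) and by 0.76 without it (limma adjusted p of 0.0189) in Mbd2KO, the 1 member of 12 under 0.05 in each genotype comparison. With DSS against naive, 0 of 12 passed 0.05 in either genotype. The squamous list (Krt5, Trp63, Dsg3 and others) had 6 of 12 members tested and none called. The log2 of its summed signal lay between 9.15 and 9.8 in all samples. Krt5, Krt6a, Trp63 and Dsg3 were detected on no array, Krt10, Krt14 and Krt15 on all 18 and Ly6d on 15. Ly6d was the 1 of 6 under an adjusted p of 0.05, 1.05 higher in DSS_KO than in Naive_KO (limma adjusted p of 0.0473).

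Of the 20 genes of surface colonocytes, 18 were tested. In DSS_KO against Naive_KO, 0 rose and 3 fell (Car2, Car4 and Aqp8), with a median of −0.29 beside −0.016 over all probes. Aqp8, a water channel of surface cells, had 6.48, 7.16, 8.27 and 6.00 in DSS_KO and 8.73, 9.94, 9.84 and 10.72 in Naive_KO and fell by 2.83 (limma adjusted p of 0.00151). As for Tgm3, DSS_KO 7 held the highest of the DSS_KO values. Car2, a carbonic anhydrase, fell by 1.11 (limma adjusted p of 0.00731). In DSS_KO against DSS_WT, 1 of 18 fell (Aqp8, by a log2 difference of −2.12, limma adjusted p of 0.0135). Whether the share of surface cells had a part in the Tgm3 values was not tested.

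Markers of other cell types also moved between the groups. In DSS_KO against DSS_WT, 5 of 8 tested smooth muscle genes, 6 of 8 endothelial genes and 4 of 10 fibroblast genes were lower at an adjusted p under 0.05 and 0 were higher. Of 9 tested leukocyte genes, 8 had a positive difference there (median 0.22) and 1 was lower at an adjusted p under 0.05. The log2 of the summed signal of the smooth muscle list was 12.1 to 12.98 in DSS_KO and 13.32 to 13.82 in DSS_WT. That of the endothelial list was 9.11 to 9.66 and 10.01 to 10.53. That of the fibroblast list was 12.21 to 12.54 and 12.82 to 13.09. Cnn1 and Synpo2 of the muscle list were detected on no array. In the leukocyte list Ptprc, the gene of the sort marker CD45, was detected on 3 of 18 arrays and Itgam on none. At an adjusted p under 0.05, 8 of 9 tested genes were higher in DSS_WT than in Naive_WT. In DSS_KO against Naive_KO 7 of 9 were higher. The log2 of their summed signal was 10.63 to 11.83 in naive and 11.53 to 12.86 in DSS samples. Cd3g and S100a9 were detected on no naive array and S100a8 on 1, so they passed the filter only through DSS arrays. The counts higher with DSS are therefore partly fixed by the filter. In DSS_WT against Naive_WT, 7 of 10 fibroblast genes (median 1.02) and 3 of 8 endothelial genes (median 0.46) were also higher at an adjusted p under 0.05, and in DSS_KO against Naive_KO 0 of both lists. In DSS_KO against Naive_KO all 8 smooth muscle differences were negative (median −0.28), 0 at an adjusted p under 0.05. In Naive_KO against Naive_WT, the log2 of the summed signal of the endothelial list was 9.26 to 9.57 against 9.67 to 10.14, without overlap. In that list 7 of 8 genes had a negative log2 difference there (1 at an adjusted p under 0.05). The differences were negative for 7 of 8 smooth muscle genes (median −0.54) and 8 of 10 fibroblast genes (median −0.13), 0 of them at an adjusted p under 0.05, and positive for 8 of 9 leukocyte genes (median 0.50, 1 at an adjusted p under 0.05). Their part in the differences of the members was not tested.

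The genes whose log2 signal followed each member most closely over the 16 samples were sought among 15756 other genes. The samples share their groups, so these correlations carry the group differences and are descriptions. For Krt36 the closest was Krt1-5 (Pearson r = 0.99, Spearman rho = 0.96), which is a further reading of Krt36 rather than another gene. It was followed by A130014O09Rik (0.95 and 0.91), the immediate-early gene Arc (0.94 and 0.86), Arl5b (0.94 and 0.91) and 8430403J19Rik (0.94 and 0.86). For Tgm3 they were Maob, a monoamine oxidase (0.97 and 0.90), Fxyd4, a regulator of the sodium pump (0.96 and 0.96), Cyp2c67 (0.96 and 0.91), the enolase gene Eno3 (0.96 and 0.80) and the creatine transporter Slc6a8 (0.95 and 0.92). For Krt20 they were Cdc42ep2 and Mall (0.92 and 0.85 each), Slc51b, a chain of a bile acid transporter (0.92 and 0.82), H2-T18 (0.91 and 0.81) and Cidec (0.91 and 0.87).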

How the data were processed

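RNA of sorted colon epithelial cells was measured on Illumina MouseWG-6 arrays. Per the file headers, the deposited values are intensities, the mean over the beads of a probe, not normalized and without background subtraction, each beside a deposited detection p-value against the array's negative controls. The submitters' processing notes name lumi and limma. The authors' own normalized values were not used here.

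Background correction by 936 negative controls, quantile normalization and the log2 step were done together on 18 arrays (neqc, offset 16; limma 3.58.1, R 4.3.3). Quantile normalization sets the arrays' distributions equal, so differences are relative to the other probes. Probes with a detection p under 0.05 on at least 4 arrays were tested. The arrays 4R and 5R differed from their namesakes by an SD of 0.194 and 0.236 (other pairs of those groups 0.287 to 0.482) and were averaged with them, which left 16 samples. The labels do not say which mice a sample held, so p-values measure only the spread between these samples, which may be technical. A single limma model of the 4 group means (12 residual and 4.71 prior degrees of freedom) was fitted, two-sided, with Benjamini-Hochberg adjustment over 21938 probes. The fit was tested on simulated data. No gene values were taken from comparisons by the authors.

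The members and lists were chosen with earlier results of these data known. A gene is read by its brightest tested probe. List genes are named where called (at most 3 per list and comparison) unless said otherwise, and the 5 genes most like Krt36, Tgm3 and Krt20 by Pearson r. Probe genes were updated through Entrez numbers, which matched for 65.3% of probes. The number of arrays limits the precision.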

Additional observations from a re-analysis of the deposited data

Results flagged for a closer look

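Of 32 sets of 4 samples (8 probes in 4 groups), 3 held a sample farther from the rest than Dixon's 95% critical value allows, where chance gives about 1 in 20. Krt19 in DSS_WT 4 (13.56, the others 13.89 to 13.91) had a gap of 0.957 of the group's range. The dimmer Krt36 probe in DSS_WT 4 (9.51, the others 9.86 to 9.9) had 0.899, a gap that the brighter Krt36 probe did not share. Krt8 in Naive_WT 12 (14.77, the others 14.63 to 14.65) had 0.878. DSS_WT 4 also held the lowest Tgm3 signal of its group (7.47). Without DSS_WT 4, the log2 difference of Tgm3 in DSS_KO against DSS_WT was −3.57.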

How the results depend on the processing

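No paired analysis was possible because the groups share no replicate numbers, and the chip as a block was not run because no chip is named.

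The counts below take in Krt36 in DSS_KO against DSS_WT and Tgm3 in the comparisons with DSS_KO or Naive_KO. The samples of these comparisons picked the genes, and the counts are descriptions there. Members called in DSS_KO against DSS_WT (1) became 2 with all 18 arrays or with scaling to a common median, and 0 without background correction, without the filter or with detection on every array, where Tgm3 is not tested. With only the groups compared the count was also 1, but Krt36 in place of Tgm3. In Naive_KO against Naive_WT (0) 1 was called with all 18 arrays. In DSS_KO against Naive_KO (1) 0 were called without the filter, with detection on every array or with only the groups compared. Leaving out 1 sample gave 0 to 1 in each of these 3 comparisons: 1 (Krt36) in Naive_KO against Naive_WT without Naive_KO 16, and 0 in DSS_KO against Naive_KO without DSS_KO 5, 6 or 8 or Naive_KO 14 or 16. List genes called without the filter were 4 (9 with it) in DSS_KO against DSS_WT and 5 (9 with it) in DSS_KO against Naive_KO. No member value past a threshold changed sign.

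Scaling to a common median moved the median of all probes by 0.241 in DSS_WT against Naive_WT and by 0.233 in DSS_KO against Naive_KO. Under it signs turned for Krt8 (−0.03) and Krt19 (−0.05) in DSS_KO against DSS_WT, for Krt8 (0) in Naive_KO against Naive_WT, for Krt8 (0.01), Krt18 (0.30), Krt19 (0.16) and Krt36 (0.15) in DSS_WT against Naive_WT, for Krt8 (−0.02), Krt18 (0.27), Krt19 (0) and Krt36 (0.16) in DSS_KO against Naive_KO, and for Krt8 (−0.03) in the difference between the genotype effects. Krt7 and Krt20 had an adjusted p under 0.05 under this scaling: 0.58 (limma adjusted p of 0.0156) and 0.64 (0.0347) in DSS_WT against Naive_WT, and 0.65 (0.00893) and 0.64 (0.038) in DSS_KO against Naive_KO. Relative to the shifted median, Krt36 stayed lower in both DSS comparisons. With array weights Krt7 was 0.03 in DSS_KO against DSS_WT. In the difference between the genotype effects, all 18 arrays gave 0.02 for Krt20 and −0.07 for Krt36, and the dimmer Krt36 probe gave 0. None of the values whose sign turned passed a threshold, and the cause was not tested.

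Leaving out 1 sample turned the sign of uncalled differences, with these ranges. In DSS_KO against DSS_WT they were −0.07 to 0.08 for Krt7 and −0.02 to 0.13 for Krt19. In Naive_KO against Naive_WT they were −0.16 to 0.02 for Krt7, −0.02 to 0.03 for Krt8 and −0.22 to 0.01 for Krt18. In DSS_WT against Naive_WT they were −0.05 to 0.02 for Krt8, −0.23 to 0.01 for Krt18 and −0.51 to 0.06 for Krt36. In DSS_KO against Naive_KO the range was −0.49 to 0.17 for Krt36. In the difference between the genotype effects they were −0.02 to 0.15 for Krt7, −0.16 to 0.07 for Krt18, −0.16 to 0.14 for Krt20 and −0.28 to 0.42 for Krt36.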
